A study of Mus musculus with 12 samples.

Results

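Plin4, Sgk1, Fkbp5, Cdkn1a, Pdk4, Klf9, Tsc22d3, Per1, Ddit4 and Zbtb16 are known targets of the glucocorticoid receptor or of the FOXO transcription factors. The 10 genes were chosen from that knowledge and with the low RNA-Seq count of Plin4 after AZD-8055 in view, out of 20504 genes with counts on the coding sequence (CDS) and 23352 entries with counts on exons. The Plin4 values in the AZD-8055 comparison are therefore a description without a test, whereas the other 9 genes were tested in fits over all genes. What follows describes their RNA, their ribosome footprints, their translation efficiency (TE) and their recovery with the ribosomes of excitatory neurons in the mouse brain.

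The libraries came from 6 adult mice (3 months old) that carried both a Camk2a-Cre transgene and a RiboTag allele. RiboTag is a conditional allele of the ribosomal protein gene Rpl22 from which Cre brings out a version with an HA epitope, and the Camk2a promoter directs Cre to principal excitatory neurons of the forebrain. Mice A and B are labelled untreated and, according to the methods of the study, had vehicle by oral gavage, while mice C and D had one gavage of AZD-8055 at 100 mg/kg. AZD-8055 is an ATP-competitive inhibitor of the kinase mTOR. Tissue of these 4 mice, the right frontal lobe, was taken 1 h after the gavage, and each lysate gave a footprint library and a poly(A) RNA-Seq library. Mice E and F are called untreated here, as the study names no drug or gavage for them. Each gave an RNA-Seq library of the homogenized tissue (input) and one of RNA on ribosomes precipitated by their HA tag (IP). Each group thus held 2 mice. The p-values rest on the spread between mice within groups, pooled over the groups compared and drawn toward that of other genes.

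In glucocorticoid signalling, corticosterone crosses the cell membrane, binds the glucocorticoid receptor in a complex with heat shock proteins, and the receptor then enters the nucleus and binds DNA. FOXO factors are active when insulin and growth factor signals are low, since the kinase Akt phosphorylates them and keeps them out of the nucleus, and mTOR complex 2 is one of the kinases that activate Akt. Both routes meet on some of the same genes, such as Pdk4 and Klf15. In the brain the glucocorticoid targets respond to the daily rhythm of corticosterone and to stress, including handling, in neurons as well as in glia and vessels.

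Footprints on CDS numbered between 3503873 and 9259938 per library and RNA-Seq reads on CDS between 9395385 and 10649939 in mice A to D. Reads on exons numbered between 21880153 and 27878212 for input and between 19681269 and 22237115 for IP. A pair of mice stood apart in markers of tissue other than brain parenchyma. The 5 choroid plexus markers (led by Ttr, the transthyretin carrier) summed to 10414 RNA-Seq reads in mouse B and to 303, 803 and 502 in mice A, C and D. The 5 adipocyte markers Plin1, Adipoq, Fabp4, Cidec and Lep summed to 1335 input reads and 441 IP reads in mouse F, but to 10 and 2 in mouse E, whose IP had Plin1, Adipoq and Cidec at 0. In the RNA-Seq of mice A to D the adipocyte markers summed to between 2 and 4 reads a library, with 3 of the 5 at 0 in each. In the footprints they summed to between 8 and 22 reads.

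Promoters from RefSeq (build GRCm38.p6), each reaching from 250 bases before a start to 50 after it, were available for 9 of the 10 genes, with 18 starts in all. A set of 5 motifs was searched on both strands, and 1 window upstream of the start is shown for each gene that held a motif. The complete glucocorticoid response element, AGAACA, any 3 bases, TGTTCT, occurred in 3 of 32851 promoters (0.00913%), and 1 of the 3 belonged to Sgk1. It lay at −189 from one of the 6 Sgk1 starts, in the window chr10:21993679-21993737 on the plus strand. The FOXO element GTAAACA was found at −100 in Klf9 (chr19:23141104-23141154, plus strand) and in 3.65% of all promoters. The E-box CACGTG, to which clock factors bind, was found in Per1 (at −166, chr11:69098761-69098810, plus strand), in Fkbp5 (at −169, chr17:28486291-28486340, minus strand) and near the Sgk1 element, and in 7.15% of all promoters. The hexamer AGAACA alone, which makes up each arm of the complete element and overlaps it there, occurred in 19% of all promoters, among them several of Sgk1 and that of Tsc22d3 (at −185, chrX:140600680-140600729, minus strand). The cAMP response element TGACGTCA (1.79% of promoters) was in none of the 18. Capitals mark the motif, which is the full element in Sgk1, the FOXO element in Klf9, the E-box in Per1 and Fkbp5 and the hexamer, read from the other strand, in Tsc22d3.
Sgk1: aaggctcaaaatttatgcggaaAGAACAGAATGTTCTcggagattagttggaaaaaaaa
Klf9: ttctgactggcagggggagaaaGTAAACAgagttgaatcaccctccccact
Per1: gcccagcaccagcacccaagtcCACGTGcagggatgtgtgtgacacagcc
Fkbp5: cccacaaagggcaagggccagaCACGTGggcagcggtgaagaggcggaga
Tsc22d3: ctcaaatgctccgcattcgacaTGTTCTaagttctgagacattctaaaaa
A match is a stretch of letters and not a bound site. The windows of Plin4, Cdkn1a, Pdk4 and Ddit4 held none of these letters.

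The first comparison asked how the genes differed between mice that received AZD-8055 and mice that received vehicle. In RNA-Seq 7 of the 9 genes other than Plin4 were lower and 2 were higher after AZD-8055. Plin4, with whose low count in view the list was chosen, was lower as well. Among the 9, Zbtb16 and Fkbp5 had the largest differences. No gene of the 9 tested passed the adjusted threshold of 0.05 in the quasi-likelihood test of edgeR (Benjamini-Hochberg adjustment). Of all 12182 genes tested, 0.0575% were called higher and 0.0903% lower. An unadjusted p under 0.05 was reached by 5 of the 9 and by 1004 of all 12182 genes, DESeq2 called 1 of them and limma-voom called 0. Values below are counts divided by size factors across the 8 libraries of mice A to D (normalized counts), in the order of the mice.

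Plin4 (chr17:56100587-56109948) encodes a perilipin that coats lipid droplets and is best known from fat cells. Its normalized RNA-Seq counts were 127 and 151 in mice A and B and 76.3 and 71.9 in mice C and D. Both AZD-8055 mice lay well below both vehicle mice, and the log2 difference was −0.93 (SE 0.16, n = 2 and 2 mice). It lay between −0.78 and −1.06 when any 1 mouse was left out, and at −0.78 without mouse B, the mouse with choroid plexus RNA. The list was chosen with this fall in view, so the range describes it and lends it no support. Only 20, 24, 10 and 13 footprints covered the Plin4 CDS in mice A to D, a mean of 16.8, which is under the minimum mean of 37 counts used for testing. Normalized, they came to 16.4, 37.5, 21.4 and 19.5, so that the footprints of both groups overlapped. The adipocyte markers were at or near 0 in all RNA-Seq libraries of these mice. The part of choroid plexus or adipocyte RNA in the Plin4 values was not tested.

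Among the regulators of glucocorticoid action, Fkbp5 (chr17:28398753-28486149) encodes a co-chaperone that lowers the affinity of the receptor for its hormone. Fkbp5 RNA measured 391 and 330 in mice A and B against 282 and 212 in mice C and D. Its footprints measured 421 and 339 against 252 and 244. Neither pair overlapped, with log2 differences of −0.57 in RNA (SE 0.12, adjusted p = 0.0952) and −0.62 in footprints (SE 0.13, adjusted p = 0.0528), which did not pass the threshold. The calls rested on the setting (a fit without 1 mouse takes the spread of the single mouse left from the other group), as the footprint difference passed with limma-voom (adjusted p = 0.0481), with total counts as scaling (adjusted p = 0.0498), with every gene kept (adjusted p = 0.000874) and without mouse C (adjusted p = 0.00179) or D (adjusted p = 0.00930). The RNA difference passed with every gene kept (adjusted p = 0.0112) and without mouse C (adjusted p = 0.00855).

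Tsc22d3 (chrX:140539528-140600522), also known as glucocorticoid-induced leucine zipper, carries anti-inflammatory effects of the hormone. Its RNA was 454 and 497 in the vehicle mice and 393 and 413 in the AZD-8055 mice. Its footprints were 770 and 674 against 647 and 625. The groups did not overlap at either level, yet the differences of −0.26 (SE 0.087, adjusted p = 0.388) and −0.19 (SE 0.087, adjusted p = 0.404) were not called. Sgk1 (chr10:21882184-21999903) encodes a kinase that regulates ion transport and, like Akt, phosphorylates FOXO factors. Its RNA was 1299 and 1398 against 1122 and 1382, and its footprints were 1769 and 1634 against 1374 and 1661. Mouse D lay among the vehicle mice at both levels, and the differences were −0.13 in RNA (SE 0.093, adjusted p = 0.766) and −0.16 in footprints (SE 0.10, adjusted p = 0.539).

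Of the transcription factors, Zbtb16 (chr9:48651797-48836225) encodes the zinc finger protein PLZF. Its RNA measured 271 and 210 in the vehicle mice and 163 and 106 in the AZD-8055 mice. Its footprints measured 358 and 336 against 293 and 231. The groups were apart at both levels, by −0.86 in RNA (SE 0.17, adjusted p = 0.0624) and by −0.42 in footprints (SE 0.13, adjusted p = 0.227). The RNA difference passed the threshold with DESeq2 (adjusted p = 0.0388), with total counts (adjusted p = 0.0350), with exon counts (adjusted p = 0.0263), with every gene kept (adjusted p = 0.00176) and without mouse C (adjusted p = 0.00592), and the footprint difference passed without mouse C (adjusted p = 0.00919).

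Klf9 (chr19:23141226-23168129) encodes a Krüppel-like repressor that responds to corticosterone in hippocampal neurons. Its RNA was nearly level at 546, 505, 533 and 509 in mice A to D, with a difference of −0.04 (SE 0.079, adjusted p = 0.939). Its footprints were 1074 and 961 against 1113 and 1133, a difference of 0.14 (SE 0.078, adjusted p = 0.466) with the AZD-8055 mice on top. Per1 (chr11:69095108-69109965) encodes a repressor of the circadian clock that glucocorticoids also induce. Per1 RNA was 1524 and 1859 against 2043 and 2015, and its footprints were 691 and 691 against 859 and 903. Both AZD-8055 mice were above both vehicle mice at each level, by 0.24 in RNA (SE 0.087, adjusted p = 0.445) and 0.36 in footprints (SE 0.085, adjusted p = 0.109). The RNA difference passed without mouse B (adjusted p = 0.0345) but was 0.097 without mouse A (adjusted p = 0.719), and the footprint difference passed without mouse C (adjusted p = 0.00182).

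The remaining genes act on growth and metabolism. Ddit4 (chr10:59949675-59951770), or REDD1, encodes an inhibitor of mTOR complex 1. Its RNA was 468 and 499 against 388 and 456, a difference of −0.22 (SE 0.094, adjusted p = 0.568). Its footprints overlapped, at 571 and 510 against 429 and 557, with a difference of −0.11 (SE 0.13, adjusted p = 0.755). Cdkn1a (chr17:29090979-29100722) encodes the cell cycle inhibitor p21, a target of FOXO factors and of p53. Its RNA was 115 and 89.8 against 108 and 65.4, and its footprints were 176 and 128 against 150 and 102. The 2 mice of a group differed more than the groups, and the differences were −0.27 (SE 0.21, adjusted p = 0.783) and −0.32 (SE 0.21, adjusted p = 0.533). Pdk4 (chr6:5483351-5496278) encodes a kinase that shuts down pyruvate dehydrogenase during fasting. Its RNA was 70.3 and 78.9 against 118 and 79.8, and its footprints were 121 and 111 against 184 and 141. Mouse C was the highest at both levels, and the differences were 0.37 in RNA (SE 0.19, adjusted p = 0.657) and 0.47 in footprints (SE 0.17, adjusted p = 0.313). Without mouse C they were 0.081 and 0.30, and without mouse D 0.62 and 0.64.

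**Figure D1:**
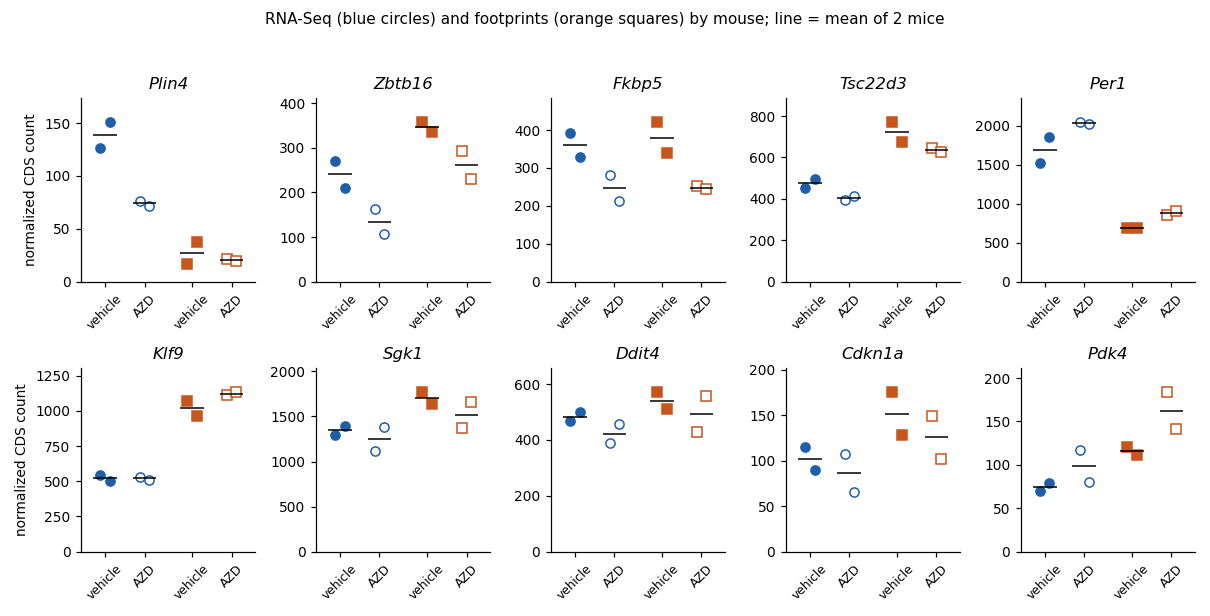
Normalized CDS counts (vertical axis, from 0, scaled to each gene) of the 10 genes in RNA-Seq (blue circles) and footprints (orange squares), with filled symbols for the vehicle mice A and B, open symbols for the AZD-8055 mice C and D and a line at the mean of both mice. Plin4 RNA sits at 127 and 151 with vehicle and at 76.3 and 71.9 with AZD-8055, while Klf9 RNA is nearly level.

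Across the 9 genes with enough footprints, 6 were lower and 3 higher after AZD-8055, and none was called by the same edgeR test, against 0.0468% of 10695 genes called higher and 0.982% lower. An unadjusted p under 0.05 was reached by 4 of the 9 and by 1369 of all 10695 genes, DESeq2 called 0 and limma-voom called 1, namely Fkbp5. In RNA the groups did not overlap for 4 of the 9 genes other than Plin4 that were lower (Fkbp5, Tsc22d3, Ddit4 and Zbtb16) and 1 that was higher (Per1), and this held for 18.7% and 20.2% of all genes. In footprints they did not overlap for 3 lower genes (Fkbp5, Tsc22d3 and Zbtb16) and 3 higher ones (Pdk4, Klf9 and Per1), against 22.8% and 18.9% of all genes. The median difference in RNA of the 9 genes other than Plin4 was −0.22, beside −0.0035 for all genes. In footprints the median of 9 was −0.16, beside 0.00099. RNA and footprints come from the same lysates, and in 8 of the 9 genes both differences had the same sign, Klf9 being the exception with values near 0.

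**Figure D2:**
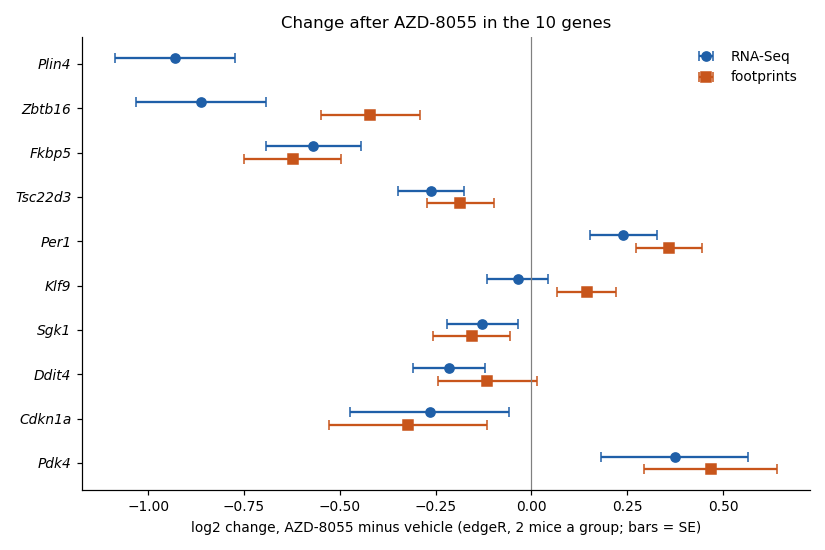
Log2 difference between AZD-8055 and vehicle mice (horizontal axis) for each gene in RNA-Seq (blue circles) and footprints (orange squares), with bars of 1 SE from edgeR and 2 mice a group; Plin4 has no footprint value because it lay under the count minimum. Plin4 (−0.93), Zbtb16 (−0.86) and Fkbp5 (−0.57) lie farthest to the left in RNA, and Per1 and Pdk4 to the right of 0 at both levels.

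Other genes of these pathways were compared in the same way. Of 16 other glucocorticoid-responsive genes tested in RNA, 1 rose, 0 fell and 4 in all lay above 0, with a median of −0.22. The gene that rose was Dusp1, a phosphatase of MAP kinases that is also an immediate early gene, with a log2 change of 0.54 (SE 0.095, adjusted p = 0.0306, edgeR's quasi-likelihood test). In footprints Dusp1 differed by 0.56 (adjusted p = 0.0670). Hif3a (−0.80) and Cebpd (0.84) marked the ends of the list in RNA and were not called. In footprints 7 of the 13 genes of this list that were tested lay above 0, with a median of 0.063, and 0 were called. Of 18 other FOXO targets tested in RNA none passed, although 15 lay above 0, with a median of 0.14. The largest values were those of Bbc3, a pro-apoptotic protein (0.66, adjusted p = 0.557), and Txnip, an inhibitor of thioredoxin and glucose uptake (0.61, adjusted p = 0.0724). In footprints the largest was Pik3ip1, an inhibitor of PI3 kinase (0.66, adjusted p = 0.0528). Of the 8 genes of the receptors and their chaperones and the 13 genes of FOXO factors and their upstream kinases, none was called in RNA or in footprints, with RNA medians of −0.12 and 0.024. The medians of the markers of neurons, glia, endothelial and mural cells lay between −0.096 and 0.13 in RNA, and that of the 2 tested choroid plexus markers was −2.14, in which mouse B had the high counts.

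The next comparison asked how heavily the RNA of each gene was occupied by ribosomes. TE is the log2 ratio of normalized footprints to normalized RNA-Seq counts in the same mouse, so gene length drops out and genes can be set side by side. The median TE of 10882 genes in the vehicle mice was 0.016, and the difference between both mice had an SD of 0.28 over all genes. Klf9 stood highest of the genes, with 0.97 and 0.93 in mice A and B (mean 0.95 ± 0.033 SD, n = 2), at the 86.4th percentile. Per1 stood low, with −1.14 and −1.43 (mean −1.28 ± 0.20), at the 10.1th percentile. Between them lay Fkbp5 at 0.073 ± 0.047, Ddit4 at 0.16 ± 0.18 and Sgk1 at 0.33 ± 0.16, followed by Zbtb16 at 0.54 ± 0.20, Cdkn1a at 0.56 ± 0.071, Tsc22d3 at 0.60 ± 0.23 and Pdk4 at 0.64 ± 0.20. From Fkbp5 to Pdk4 the values of the 2 mice overlapped between neighbours in this order, whereas Per1 lay apart from Fkbp5 and Klf9 above Pdk4 in both mice. The median of the 9 genes was 0.54, and 1 of them, Per1, lay under the median of all genes.

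Plin4 had 44 footprints in the vehicle mice and did not reach the minimum of 75, so it was given no percentile. Its TE was −2.95 and −2.01 in mice A and B and −1.84 and −1.88 in mice C and D, and it was the lowest of the 10 genes in each mouse. The Plin4 protein is known for a long run of near-identical repeats, and the counts are, by the methods of the study, of uniquely mapped reads. Whether this bears on the Plin4 counts or TE was not tested.

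No TE difference was called after AZD-8055 for these genes. The edgeR interaction of library kind and treatment called 0 of the 9 tested genes, with 0 at an unadjusted p under 0.05 (796 of all genes) and 0 with DESeq2 or limma-voom, against 0.0763% of 11797 genes called higher and 0.788% called lower. The largest tested difference was that of Zbtb16 at 0.42 (SE 0.25, adjusted p = 0.793), whose TE was 0.40 and 0.68 with vehicle and 0.84 and 1.12 with AZD-8055. The other 8 lay between −0.08 and 0.16. Plin4, as a description, differed by 0.65 with an SE of 0.49.

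**Figure D3:**
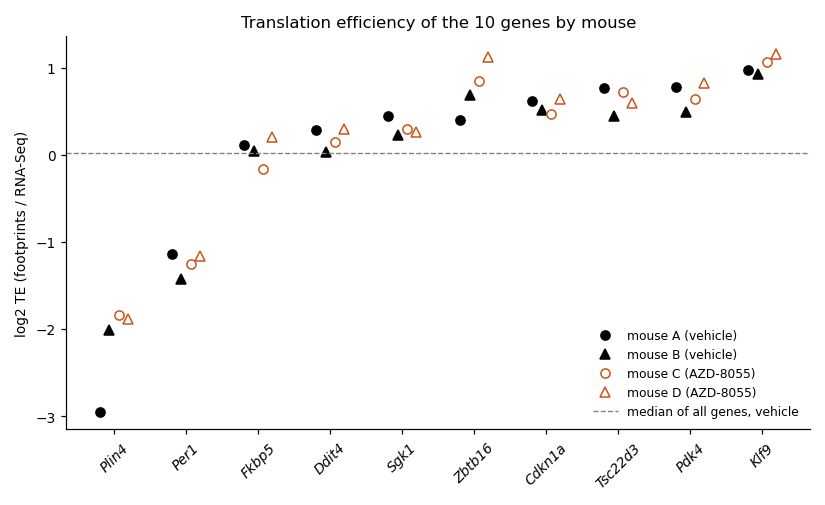
Log2 TE (vertical axis) of each gene in mice A and B (vehicle, filled black) and C and D (AZD-8055, open orange), ordered by the vehicle mean, with the median of all genes as a dashed line. Plin4 and Per1 lie below the line in all 4 mice and Klf9 lies near 1 in each.

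The RiboTag comparison asked which of the genes were carried on ribosomes of Camk2a-expressing neurons. A depletion in the IP was called for 4 of the 10, namely Pdk4, Plin4, Zbtb16 and Sgk1, and none was enriched over 2-fold, against 21.8% of 13254 genes depleted and 11.7% enriched. Calls needed an adjusted p under 0.05 in the edgeR test and a change over 2-fold, on exon counts. In bulk tissue fewer cells of a type and less RNA per cell cannot be told apart. The markers of excitatory neurons had a median of 0.84 on the log2 scale, with 2 of 6 enriched and none depleted. The medians of the other markers were −2.19 for inhibitory neurons, −3.34 for astrocytes, −2.81 for oligodendrocytes, −3.35 for microglia, −3.48 for endothelial cells and −3.66 for mural cells.

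Pdk4 was the most depleted, with normalized exon counts of 287 and 263 for input (mice E and F) and of 29.3 and 19.6 for IP. Its log2 change of −3.61 (SE 0.25, adjusted p = 9.64e-05) lay in the range of the glial and vascular medians. Plin4 fell from 432 to 36.0 in mouse E and from 211 to 84.1 in mouse F. The 2 mice disagreed in size, at −3.59 in mouse E and −1.33 in mouse F, and the joint change was −2.51 (SE 0.48, adjusted p = 0.00395). Mouse F was the mouse with adipocyte RNA, whose markers Lep and Fabp4 had normalized counts of 265 and 439 in its input and 139 and 236 in its IP, and their part in the Plin4 values was not tested. In mouse E, where these markers were at or near 0, the depletion of Plin4 was the larger of both.

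Zbtb16 measured 1695 (mouse E) and 600 (mouse F) before precipitation and 545 and 264 after it, a change of −1.63 (SE 0.53, adjusted p = 0.0331) that was not called with DESeq2 (adjusted p = 0.0858) or limma-voom (adjusted p = 0.0557). Sgk1 measured 3325 and 2000 in the input against 1329 and 1395, a change of −1.08 (SE 0.23, adjusted p = 0.00611) that was larger in mouse E (−1.32) than in mouse F (−0.52). It was under 2-fold, and so not called, with a minimum of 10 counts (−0.997) and with every gene kept (−0.99). Cdkn1a went the other way in both mice, from 617 to 1114 and from 361 to 820, and its change of 0.87 (SE 0.27, adjusted p = 0.0270) passed the test but not the 2-fold limit. Differences without a call were those of Per1 (−0.69, adjusted p = 0.165), Tsc22d3 (−0.61, adjusted p = 0.106), Klf9 (−0.27, adjusted p = 0.338), Ddit4 (−0.07, adjusted p = 0.739) and Fkbp5 (0.07, adjusted p = 0.892). Tsc22d3 was lower in the IP of mouse E (−0.90) and level in that of mouse F (0.076).

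The other glucocorticoid-responsive genes had a median of −0.60 in the IP, with 7 of 16 depleted and 1 enriched. Depleted with the largest changes were Mfsd2a, a lipid transporter of the blood-brain barrier (−3.10, adjusted p = 0.000384), Tgm2, a transglutaminase (−2.85, adjusted p = 0.000198), and Hif3a (−2.27, adjusted p = 0.00788), and Gadd45g was enriched (1.39, adjusted p = 0.000515). Of 19 other FOXO targets, 3 were enriched and 2 depleted, with a median of 0.085. The enriched ones were Gadd45a (1.48, adjusted p = 0.0257), Bbc3 (1.36, adjusted p = 0.00346) and Gabarapl1, an autophagy protein (1.26, adjusted p = 0.000106), and Txnip was the most depleted (−3.08, adjusted p = 0.000208). Of the 8 genes of the receptors and chaperones, 1 was depleted and 0 enriched, with a median of 0.57 and 5 above 0. In log2 ratios averaged over mice E and F, the receptor genes Nr3c1 and Nr3c2 were at −0.0027 and −0.69. On CDS counts they were at −1.94 and −0.91. The chaperone genes lay between 0.67 (Hsp90aa1) and 1.00 (Stip1) on exon counts. Of the 13 FOXO factors and upstream kinases, 2 were depleted and 0 enriched, with a median of −0.43 and 5 above 0. Of all genes 21.8% were depleted. The depleted ones were Hsd11b1, the enzyme that regenerates active glucocorticoid (−1.78, adjusted p = 0.00297 in the edgeR test), Foxo3 (−1.32, adjusted p = 0.00117) and Rictor, a subunit of mTOR complex 2 (−1.29, adjusted p = 0.000211).

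**Figure D4:**
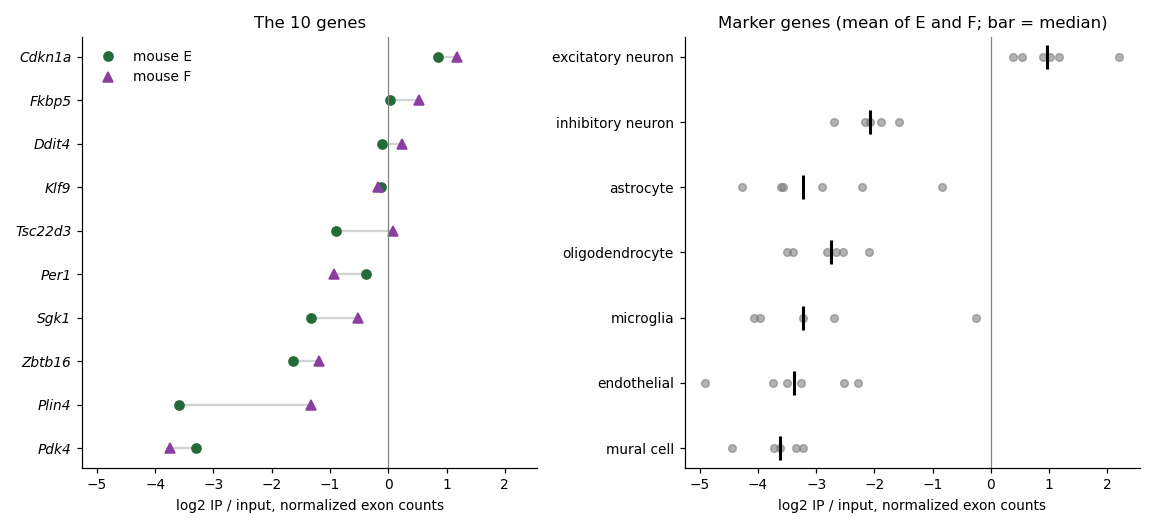
Log2 ratio of IP to input in normalized exon counts (horizontal axis) for the 10 genes in mouse E (green circles) and mouse F (purple triangles), and beside them the marker genes of 7 cell types as the mean of both mice (grey points) with the median of each type as a bar. Pdk4 lies with the glial and vascular markers in both mice, Plin4 does so in mouse E (−3.59) and less in mouse F (−1.33), and Cdkn1a lies with the excitatory neuron markers.

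Between the 2 untreated mice, the input of mouse E held more RNA of each of the 10 genes than that of mouse F. This pattern was picked from the values after they had been seen, with 1 mouse on each side, and is a description without a test. The difference was over 1.5-fold for 7 of the 10, beside 2.73% of all 13254 genes, and its median was 0.75 on the log2 scale, beside 0.0070 for all genes. Zbtb16 had the largest difference (1695 against 600 normalized exon counts, 2.82-fold), followed by Fkbp5 (1629 against 657, log2 1.31), Plin4 (432 against 211, log2 1.03) and Tsc22d3 (2807 against 1427, log2 0.98). Cdkn1a (0.77), Sgk1 (0.73), Per1 (0.67), Klf9 (0.51) and Ddit4 (0.48) followed, and Pdk4 was nearly level at 0.13. The median was 0.82 on CDS counts and 0.73 with total counts as scaling.

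More of the genes were also higher in mouse E in the list of other glucocorticoid-responsive genes, of which 13 of 16 were higher in mouse E and 7 over 1.5-fold, with a median of 0.42. Map3k6 (1.54), Hif3a (1.51) and Arrdc2 (1.12) had the largest differences. The median of the other FOXO targets was −0.017, with 9 of 19 higher and 3 over 1.5-fold, and that of the receptors and chaperones was 0.017. Of 10 immediate early genes 6 were higher and 3 over 1.5-fold, with a median of 0.20. Of all genes 51.6% were higher in mouse E and 2.73% over 1.5-fold. Among clock genes Per2 was higher by 1.40, and the median of the 10 was 0.22. Markers of neurons, glia, endothelial and mural cells had medians between −0.16 and 0.15. Single endothelial markers reached from −0.60 (Cldn5) to 1.25 (Slc2a1). The 3 adipocyte markers with enough counts were lower in mouse E, with a median of −7.19. Of the 2 choroid plexus markers with enough counts, Ttr was lower in mouse E (87.2 against 750.4 normalized exon counts) and Clic6 was nearly level (113 against 105). The part of these markers in the differences of the 10 genes was not tested. In the IP, 7 of the 10 genes were higher in mouse E with a median of 0.50, led by Per1 (1.22), Zbtb16 (1.04) and Fkbp5 (0.81), whereas Plin4 was lower (−1.23). Of all genes 50.2% were higher in the IP of mouse E, with a median of 0.0016.

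Differences between mice given the same treatment were also present in the other experiment. Zbtb16 RNA was higher in mouse A than in B by 0.37 and in mouse C than in D by 0.62. Fkbp5 differed in the same directions by 0.24 and 0.41, and Cdkn1a by 0.35 and 0.72. Plin4 differed less within a treatment, at −0.25 between A and B and 0.08 between C and D. Over all 10 genes the median was −0.099 for A against B and 0.075 for C against D.

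With the RNA-Seq of all 6 mice on one scale of normalized CDS counts, Plin4 was at 311 and 165 in the inputs of mice E and F, at 205 and 245.9 in mice A and B and at 122 and 116 in mice C and D. Both AZD-8055 mice were lower than each of the 4 mice without the drug. The list was chosen with the fall in mice A to D in view, so this order lends it no support. Mice E and F come from another experiment, and the input of mouse F held adipocyte RNA, whose part was not tested. Zbtb16 was at 663 and 223 in mice E and F, 440 and 342 in mice A and B and 261 and 171 in mice C and D, so that mouse F, which had no drug, lay between the AZD-8055 mice. Fkbp5 was at 683 and 293, 634 and 538, and 451 and 341, and mouse F was the lowest of the 6. The AZD-8055 differences of Zbtb16 and Fkbp5 were thus smaller than the difference between the untreated mice on the same counts, which was 1.57 for Zbtb16 and 1.22 for Fkbp5. For Plin4 that difference was 0.91, about the size of its AZD-8055 difference.

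The vehicle mice were further compared with the untreated inputs. The 2 groups come from different experiments, and of them a gavage is named for the vehicle mice alone. Treatment and experiment therefore cannot be told apart. None of the 10 genes passed the edgeR test after adjustment, against 5.57% of 12486 genes higher with vehicle and 6.84% lower. An unadjusted p under 0.05 was reached by 2 of the 10 and by 3614 of all 12486 genes, so the 10 genes did not exceed the background, and DESeq2 called 0. Sgk1 (0.57, SE 0.19, adjusted p = 0.0730) and Ddit4 (0.46, SE 0.16, adjusted p = 0.0933) were the nearest. In Sgk1, Ddit4 and Pdk4 both vehicle mice lay above both inputs, against 28.8% of all genes, and no gene had both below, against 29% of all genes. The count moved with the mice used. Without mouse E 7 of the 10 genes were called (all but Plin4, Pdk4 and Per1) beside 2677 of all genes, and without mouse F 2 (Plin4 and Zbtb16) beside 2427. Without mouse A 2 were called (Sgk1 and Tsc22d3) beside 739 of all genes, and without mouse B 1 (Sgk1) beside 769. Each of these fits leaves 1 group with a single mouse, which is assumed to vary like the mice of the other group. Zbtb16 was higher with vehicle by 0.81 without mouse E, while all 4 mice together gave −0.17.

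Genes with a pattern most like that of Plin4 were sought across the 8 libraries of mice A to D, by the Pearson correlation of log2(normalized count + 1) centred within each kind of library. Among 10531 genes the 5 most alike were Jmjd6 (0.937), Atp11a (0.933), Sdf2l1 (0.927), Tmem168 (0.918) and Hrh1 (0.911). These values describe 8 libraries from 4 mice, in which RNA-Seq and footprints share an animal. Plin4 had only 10 to 24 footprints a library, under the count minimum. The 5 genes were picked as the highest of 10531, without a test. Of the other 9 genes Zbtb16 came nearest at 0.60, then Fkbp5 at 0.41 and Tsc22d3 at 0.39. Pdk4 (−0.47), Per1 (−0.50) and Klf9 (−0.51) had negative values.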

How the data were processed

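RNA-Seq of 6 mice, footprints of 4 and HA-precipitated RNA of 2 were analysed as raw counts of reads on CDS or exons, as the authors deposited them. Per the labels, reads were aligned to mm10 with Bowtie2 and TopHat2 and counted with HTSeq (versions not given in the sources used here). All 12 libraries were used, and 0 other columns were left out. Groups came from the labels, and the vehicle from the methods of the study.

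Counts were tested with edgeR 4.0.16 in R 4.3.3 (TMM, quasi-likelihood test, Benjamini-Hochberg adjustment over all genes, threshold 0.05, genes averaging 37 or more counts). RNA and footprints of mice A to D were compared within their kind, TE as the interaction of both kinds, and IP with input on exon counts with a further limit of 2-fold. TE used DESeq2 1.42.0 size factors and at least 75 counts in each kind. Positions, promoters and the motif search used RefSeq tables of GRCm38.p6. The procedure was tested on simulated data.

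The members and the gene lists were chosen with earlier results of these data known. Named beside the members were list genes past the threshold of an AZD-8055 test, the largest changes per list in the IP, and the 5 genes most like Plin4. Outside this rule, the AZD-8055 values of Hif3a, Cebpd, Bbc3, Txnip and Pik3ip1 were chosen after they had been seen. So were the IP values of Gadd45g and of the receptor and chaperone genes. The comparison of mice E and F was picked in the same way, with its values of Map3k6, Hif3a, Arrdc2, Per2, Cldn5 and Slc2a1. Alternatives were DESeq2 and limma-voom 3.58.1, other scalings and count minimums, CDS or exon counts, the mouse as a block, and leaving out each mouse.

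Mouse letters pair libraries of one animal. Over all genes, differences of 2 mice in one kind of library correlated with those in the other kind at 0.250 (A and B), 0.237 (C and D) and 0.558 (E and F). Figures were drawn with matplotlib 3.10.9 in Python 3.11.15.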

Additional observations from a re-analysis of the deposited data

How the results depend on the processing

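With the mouse as a replicate block, which uses the paired libraries, TE calls numbered 147 in place of 102 and IP calls 4463 in place of 4433, with 0 and 4 of the 10 genes called as before, so the block changed no call of theirs. AZD-8055 calls in RNA, 18 in all genes, numbered 28 with DESeq2, 29 with total counts and 78 with every gene kept, and 13 to 36 when a mouse was left out. Of the 9 genes besides Plin4, 1 was called with DESeq2, 1 with total counts, 1 with exon counts, 2 with every gene kept and 0 to 2 when a mouse was left out. In footprints, 264 genes were called with every gene kept against 110, and 64 to 837 when a mouse was left out. Of the 9 genes, 1 was called with limma-voom, 1 with total counts, 1 with every gene kept and 0 to 3 when a mouse was left out. TE calls ranged from 56 to 77 when a mouse was left out. Against the untreated inputs, 497 genes were called on exon counts in place of 1550, and 739 to 2677 when a mouse was left out, with 1 to 7 of the 10 genes.

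Directions turned in small differences when 1 mouse was left out, as the lowest and highest values show. In RNA these were −0.080 and 0.013 for Klf9, −0.30 and 0.021 for Sgk1 and −0.65 and 0.049 for Cdkn1a, and in footprints −0.36 and 0.066 for Ddit4. In TE they were −0.13 and 0.040 for Sgk1, −0.27 and 0.14 for Fkbp5, −0.14 and 0.067 for Cdkn1a, −0.045 and 0.21 for Pdk4, −0.077 and 0.20 for Tsc22d3, −0.031 and 0.21 for Per1 and −0.034 and 0.19 for Ddit4. Against the untreated inputs they were −0.46 and 0.46 for Plin4, −0.28 and 0.32 for Per1, −0.77 and 0.81 for Zbtb16, −0.23 and 0.996 for Fkbp5, −0.16 and 0.48 for Klf9 and −0.35 and 0.81 for Cdkn1a. In the IP, Fkbp5 was −0.20 with total counts and −0.20 on CDS counts, and Ddit4 was 0.017 with a minimum of 10 counts, 0.023 with every gene kept and 0.22 on CDS counts. Per1 was 0.0061 against the untreated inputs on exon counts. The causes of these shifts were not tested. With 1 mouse left out of the IP no test remained. Plin4 footprints lay under the count minimum, and each group held 2 mice.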
